A study of Mus musculus with 3 samples.

Results

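The ligand interferon beta (*Ifnb1*) and the 4 genes that encode the chains of the interferon receptors (*Ifnar1*, *Ifnar2*, *Ifngr1* and *Ifngr2*) were followed in murine bone marrow-derived macrophages (BMDMs) treated with borrelial lipoproteins (*Bb*LP). They were chosen by symbol, and each of the 5 symbols matched 1 of the 32285 genes of the count matrices. The 5 genes gave 2 kinds of result. The ligand was too sparse for most comparisons, with 2 unique molecular identifiers (UMIs, each standing for 1 captured transcript) in untreated cells and 96 at 4 hours. The receptor chains were abundant enough to compare in detail, and at 4 hours the level of *Ifngr1* as a share of all UMIs was lower, and the levels of the other 3 chains were higher, than in untreated cells. Per cell, where treated cells held more UMIs, *Ifngr1* was higher too.

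All BMDMs came from female C3H/HeN mice aged 6 to 8 weeks and were grown in medium conditioned with L929 cells. The methods describe pooled bone marrow for the cultures in general, but for this experiment cells of 3 mice that were treated independently. Droplet-based single-cell RNA sequencing was carried out on 1 library of untreated cells given PBS and collected at 4 hours (Ctrl), 1 of cells treated with 1 µg/mL *Bb*LP for 1 hour (LP1) and 1 of cells treated with the same dose for 4 hours (LP4). Cells from 3 wells were pooled for each library. Conditions are therefore unreplicated, and differences between them could not be tested. LP1 and Ctrl also differ in collection time (1 hour against 4 hours), which cannot be told apart from treatment in that comparison. Every interval below is a 95% interval for counting error only, which leaves out how far cultures vary. Intervals on UMIs also treat each UMI as independent and leave out how far cells vary. They are too narrow where few cells hold most UMIs.

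After cells were kept with over 500 UMIs, over 500 genes and under 5% mitochondrial UMIs, the Ctrl library held 6071 cells, the LP1 library 5065 and the LP4 library 4670. They held 35688939, 52475723 and 61402275 UMIs, and the median cell held 5133, 9343 and 11784. Treated cells therefore had more UMIs each, and whether this was sequencing depth or RNA content cannot be told apart. Levels are given as UMIs per 1000000 UMIs of the library (CPM), and shares of cells are given after thinning each cell to 2000 UMIs. Between 3 and 9 barcode sequences of kept cells occurred in each pair of libraries. In each library, 89.8% to 91.5% of cells fell into clusters named macrophage-like, and the summed level of 7 T and NK cell markers was between 0.147 and 0.224 CPM. The summed level of 8 neutrophil markers was 553 CPM in Ctrl, against 456 CPM for LP1 and 738 CPM for LP4. That of 5 plasmacytoid dendritic cell markers, of which *Tcf4*, *Irf8* and *Bst2* passed 10 CPM and *Siglech* and *Ccr9* did not, was 393, 470 and 712 CPM, and that of 5 stromal markers 3.67, 4.67 and 16.7 CPM, in the order of Ctrl, LP1, LP4. Their part in the results was not tested, and the ratios in macrophage-like clusters alone are given beside them.

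Interferon beta is a type I interferon that macrophages make after a sensor of microbial products signals through interferon regulatory factors (IRFs) and NF-κB. It binds a receptor built from IFNAR1 and IFNAR2 on the same cell and on its neighbours. The kinases JAK1 and TYK2 then phosphorylate STAT proteins, which with IRF9 switch on the interferon-stimulated genes. Interferon gamma, made by T and NK cells, uses a separate receptor. IFNGR1 binds that ligand and IFNGR2 completes the signaling complex with JAK1 and JAK2.

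*Ifnb1* (ENSMUSG00000048806) lies on the minus strand of chromosome 4 at 88522025-88522774 of GRCm38, the build also called mm10. The stretch upstream of the gene is shown because the ligand is known to be switched on through it, and because motif letters there can be set against those of the receptor genes. The sequence is that of the RefSeq start of *Ifnb1* (GRCm38.p6, which is the genome of another mouse strain), covers chr4:88522855-88522964 on the minus strand and runs from 170 to 61 bases before the start. The same stretch of *Ifngr2*, at chr16:91546889-91546998 on the plus strand, follows it. The last base before the RefSeq start is 88522795 for *Ifnb1* and 91547058 for *Ifngr2*. Both starts lie upstream of the GENCODE gene positions, which begin at 88522774 and 91547072 in the direction of transcription. Distances to those positions are longer than the ones given here. Capitals mark matches to AANNGAAA, the core of an IRF element, and to GGGAANNTCC, a form of the NF-κB element, with both strands searched.

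*Ifnb1* upstream: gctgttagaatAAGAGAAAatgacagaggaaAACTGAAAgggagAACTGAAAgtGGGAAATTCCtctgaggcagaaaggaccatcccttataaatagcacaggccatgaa

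*Ifngr2* upstream: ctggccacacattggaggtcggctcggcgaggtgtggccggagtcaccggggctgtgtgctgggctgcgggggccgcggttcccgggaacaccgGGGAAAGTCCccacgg

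Over the whole 250 bases upstream, *Ifnb1* held 3 matches to the IRF core and 1 to the NF-κB element, and the NF-κB match starts 116 bases before the start, right after the last of the IRF matches. *Ifngr2* held 1 match to the NF-κB element, 76 bases before its start. *Ifnar1*, *Ifnar2* and *Ifngr1* held no match to either. For TTCNNNGAA, the core of a gamma-activated site, *Ifnar2* alone of the 5 held a match. Among all 32851 promoters of the same length, 21.3% held the IRF core, 1.09% the NF-κB element and 7.02% the gamma-activated site. These matches describe letters only, and the motifs were chosen after the sequences were seen.

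*Ifnb1* was counted by 2 UMIs in Ctrl, by 10 UMIs after 1 hour and by 96 after 4 hours. Its level was 0.056 CPM in Ctrl (Poisson interval 0.0068 to 0.202), 0.191 CPM in LP1 (0.0914 to 0.350) and 1.56 CPM in LP4 (1.27 to 1.91). LP4 stood above both other libraries, and the intervals of Ctrl and LP1 overlapped. The log2 ratio of LP4 over Ctrl was 4.80 (exact conditional binomial interval 2.91 to 7.87), a fold of 27.9 whose interval ran from 7.52 to 234. LP4 over LP1 gave 3.04 (2.10 to 4.14). LP1 over Ctrl gave 1.77 with an interval from -0.46 to 5.00, so a difference at 1 hour was not detectable at this depth. *Ifnb1* stayed under the minimum of 10 CPM in 1 library that was set for counts over genes, and it was left out of those counts.

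**Figure D1:**
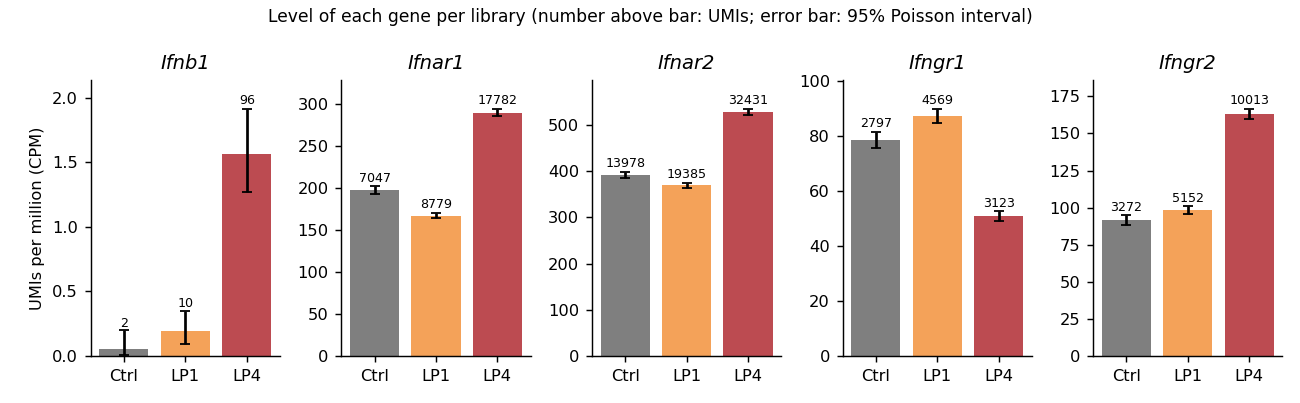
Level of *Ifnb1* and the 4 receptor genes in CPM (vertical axis, from 0, a separate scale for each gene) in the Ctrl, LP1 and LP4 libraries; bars show the library value, error bars the 95% Poisson interval, and the number above each bar the UMIs. *Ifnb1*, *Ifnar1*, *Ifnar2* and *Ifngr2* are highest in LP4, and *Ifngr1* is lowest there in CPM, though not per cell, where LP4 is above Ctrl.

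The transcripts were found in few cells. In LP4, 51 of 4670 cells (1.09%, exact binomial interval 0.814 to 1.43) had an *Ifnb1* UMI, against 10 of 5065 in LP1 (0.197%) and 2 of 6071 in Ctrl (0.0329%). With every cell thinned to 2000 UMIs the share in LP4 was 0.368% (0.214 to 0.588), with 17 cells of 4625, and 1 cell in Ctrl and 2 in LP1 remained positive. None of these is the share of cells that expressed the gene. No population in the culture is known to lack *Ifnb1*, so the share that free RNA would give was not measured.

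The *Ifnb1* UMIs of LP4 were gathered in a small number of cells. In Ctrl and LP1 every positive cell had 1 UMI. In LP4, 26 cells had 1 UMI, 16 had 2, 5 had 3, and 1 cell each had 4, 5, 6 and 8. The 25 cells with 2 or more UMIs held 70 of the 96 UMIs (72.9%), and the 10 cells with the most held 40 (41.7%). *Ifnk*, which encodes interferon kappa and was counted at a like number of UMIs (136 in LP4), was spread differently, with 5.88% of its UMIs in cells with 2 or more.

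The positive LP4 cells lay mainly in 2 of the 10 clusters, which were built without the 5 genes. Cluster A, macrophage-like cells led by *Egr3*, *Ms4a6b*, *Nr4a3* and *Apoe*, had 31 positive cells of 1358 (2.28%, interval 1.56 to 3.22) and 60 of the 96 UMIs (62.5%). Cluster D, macrophage-like cells led by *Hal*, *Hdac9*, *Ch25h* and *Il27*, had 11 of 992 (1.11%, 0.555 to 1.98) and 22 UMIs. Cluster B, macrophage-like, had 6 of 870 (0.690%, 0.253 to 1.50). Cluster C, macrophage-like cells led by *Mgll* and *Mmp12* among others, had 1 of 822 (0.122%, 0.0031 to 0.676). The interval of cluster A lay above those of B and C and overlapped that of D. Cluster A was shallower than C, with a median of 8937 UMIs per LP4 cell against 16058. Among the smaller clusters, 1 of 231 cells of cluster F and 1 of 77 dendritic-like cells were positive. None of 229 cycling-like cells had an *Ifnb1* UMI, which at the floor of 3 counts allows a share of cells with a UMI of up to 1.31% (exact binomial upper bound 1.60%), and none of 29 neutrophil-like cells did, which allows up to 10.3% (11.9%).

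**Figure D2:**
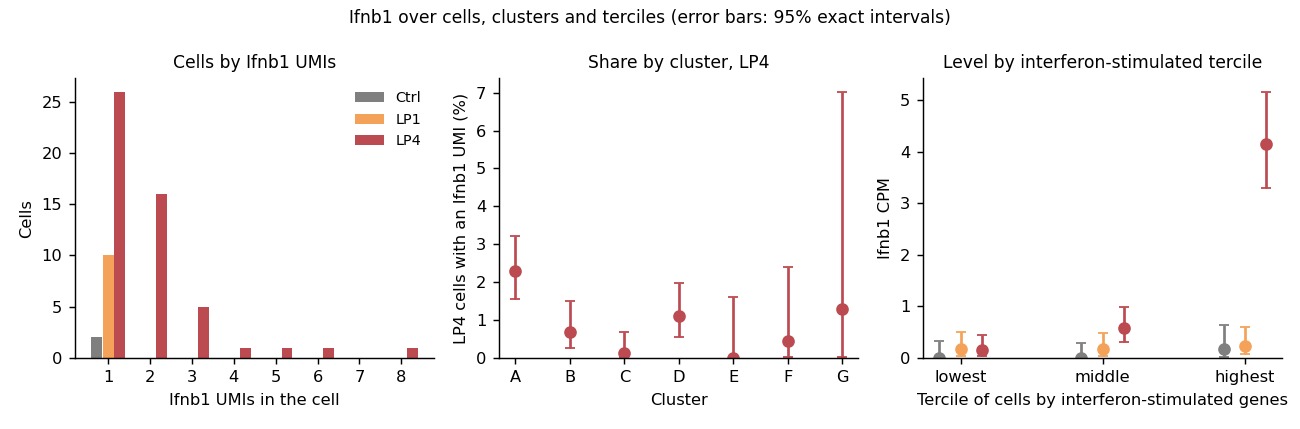
*Ifnb1* over cells: number of cells by their *Ifnb1* UMIs in each library (left), share of LP4 cells with an *Ifnb1* UMI in clusters A to G with 95% exact binomial intervals (middle), and *Ifnb1* CPM with 95% Poisson intervals in terciles of the cells of each library by their interferon-stimulated genes (right). Cells with 2 or more UMIs occur only in LP4, cluster A has a share of 2.28%, and the highest tercile of LP4 stands at 4.15 CPM.

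The 51 positive LP4 cells were compared with the 4619 others of the same library as a description, since both come from 1 culture pool. They were not matched for cluster: cluster A held 31 of the 51, and 1358 of all 4670 LP4 cells. Differences between clusters are therefore part of the ratios below, and their share was not tested. The median depths of the positive and the other cells were 12474 and 11768 UMIs. Among genes that reached 50 CPM in the positive cells, the 5 with the largest ratio were *Gbp4*, a guanylate-binding protein of the interferon response (163 against 24.3 CPM, log2 ratio 2.75), *Ms4a4c* (2.60), *Thbs1*, which encodes the matrix protein thrombospondin (2.57), *Hbegf*, a growth factor of the EGF family (2.25), and *Isg20*, an interferon-induced exonuclease (2.24). Since the minimum was set on the positive cells, and all but *Thbs1* were under it in the others, the choice itself favoured high ratios, and they are given as a description only. They rest on 44 to 363 UMIs in the positive cells, and a single cell held between 9.40% and 25% of them. The named genes depend on that minimum: with 5 or 1 CPM none of the 5 was among the first 5, and the genes that took their places had 6 or fewer UMIs in the positive cells.

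Interferon-stimulated genes were also higher in the positive cells. *Cxcl10*, a chemokine for T cells, was at 2430 against 904 CPM (log2 ratio 1.43), *Ifit3* at 855 against 299 CPM (1.52) and *Ifit1* at 4243 against 1972 CPM (1.11). *Socs1*, an inhibitor of JAK kinases, was at 275 against 88.5 CPM (1.64). *Irf7*, a transcription factor that amplifies type I interferon production, was at 261 against 133 CPM (0.97). The receptor chains differed less. *Ifnar1* had a log2 ratio of 0.21 (0.02 to 0.39), *Ifnar2* 0.10 (-0.04 to 0.24), *Ifngr2* -0.20 (-0.50 to 0.08) and *Ifngr1* -0.68 (-1.34 to -0.09), the last on 23 UMIs. The markers of T and NK cells, of mast cells and of stromal cells were at 0 UMIs in the positive cells, and those of B cells at 2 UMIs. In the others, markers of T and NK, mast and stromal cells were at 0.148, 1.19 and 16.9 CPM. For T and NK and mast cell markers, 0 among the 719306 UMIs of the positive cells therefore says little about cell type. The summed level of 10 macrophage markers was 13387 CPM in the positive cells against 10660 CPM in the others. Most of both sums was *Lyz2* (11138.5 against 8688 CPM). *Cd68* (545 against 614 CPM), *Itgam* (220 against 263 CPM) and *Mertk* (23.6 against 35.2 CPM) were lower in the positive cells, and the other macrophage markers were higher. That of 5 plasmacytoid dendritic cell markers was 838 against 711 CPM, with *Siglech* at 0 UMIs in the positive cells and 0.132 CPM in the others. The summed level of 9 dendritic cell markers was 423 CPM in the positive cells against 151 CPM in the others. *Cd74* alone was at 281 against 108 CPM, and 4 of the 9 (*Flt3*, *Ccr7*, *Zbtb46* and *Cd209a*) had 0 UMIs in the positive cells. These 4 were at 0.198, 0.330, 1.04 and 0.0659 CPM in the others. For 8 neutrophil markers the sum was 227 against 745 CPM and for 6 cell cycle markers 152 against 548 CPM. In the positive cells most of these sums was *Mmp8* (168 against 185 CPM) and *Mki67* (143 against 301 CPM). The part of these differences was not tested.

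The cells of each library were also divided into terciles (3 groups of near equal size) by the summed share of 14 interferon-stimulated genes. In LP4, 3 *Ifnb1* UMIs lay in the lowest tercile, 13 in the middle tercile and 80 in the highest tercile, which is 0.154, 0.574 and 4.15 CPM. The interval of the highest tercile (3.29 to 5.17) was separate from those of the other terciles, but it treats UMIs as independent while few cells held most of them. In LP1 the UMIs were 3, 3 and 4, and in Ctrl both UMIs were in the highest tercile. *Ifnar1* in LP4 was 272, 294 and 303 CPM from the lowest to the highest tercile, while *Ifnar2* was 558, 526 and 500 CPM and *Ifngr2* 171, 161 and 157 CPM. *Ifngr1* was 53.1, 52.0 and 47.3 CPM. Across the terciles of LP4 the receptor chains thus moved far less than the ligand, and *Ifnar1* and *Ifnar2* moved in opposite directions. In the other libraries both were higher from each tercile to the next, with *Ifnar1* at 175, 203 and 214 CPM and *Ifnar2* at 377, 387 and 411 CPM in Ctrl, and at 159, 162 and 181 CPM and 351, 362 and 396 CPM in LP1. There the intervals of the lowest and highest terciles were separate, but not those of each step. The lowest and middle terciles overlapped, except for *Ifnar1* in Ctrl, where the middle and highest did.

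Of 20 other interferon genes, 18 (all listed alpha, lambda, epsilon and zeta interferons among them) had 0 UMIs in all 3 libraries. *Ifng*, which encodes interferon gamma, had no UMI in Ctrl and 1 UMI each in LP1 and LP4. *Ifnk* had 64, 82 and 136 UMIs, or 1.79, 1.56 and 2.21 CPM, and LP4 over Ctrl gave a log2 ratio of 0.30 (-0.13 to 0.76). It had more UMIs than *Ifnb1* in each library. *Ifnk* overlaps *Mob3b*, which is on the opposite strand.

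*Ifnar1* (ENSMUSG00000022967, chromosome 16, 91485238-91507441, plus strand) was counted by 7047, 8779 and 17782 UMIs (Ctrl, LP1, LP4, the order used from here on). Its level was 197 CPM (193 to 202), 167 CPM (164 to 171) and 290 CPM (285 to 294). It was lowest in LP1, highest in LP4, and no pair of intervals overlapped. LP1 over Ctrl gave a log2 ratio of -0.24 (-0.28 to -0.19), LP4 over Ctrl 0.55 (0.51 to 0.59) and LP4 over LP1 0.79 (0.75 to 0.83).

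*Ifnar2* (ENSMUSG00000022971, chromosome 16, 91372783-91405589, plus strand), the chain that binds type I interferon most tightly, had 13978, 19385 and 32431 UMIs. Its level was 392 CPM in Ctrl (385 to 398), 369 CPM in LP1 (364 to 375) and 528 CPM in LP4 (522 to 534), the same order of libraries as for *Ifnar1*. The log2 ratio of LP4 over Ctrl was 0.43 (0.40 to 0.46) and that of LP1 over Ctrl was -0.08 (-0.12 to -0.05). A readthrough gene, *Gm21970*, overlaps it on the same strand.

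*Ifngr1* (ENSMUSG00000020009, chromosome 10, 19591949-19610229, plus strand) had 2797, 4569 and 3123 UMIs. Its level was 78.4 CPM in Ctrl (75.5 to 81.3), 87.1 CPM in LP1 (84.6 to 89.6) and 50.9 CPM in LP4 (49.1 to 52.7). It was the only one of the 4 chains that was lowest in LP4. LP1 over Ctrl gave a log2 ratio of 0.15 (0.08 to 0.22), LP4 over Ctrl -0.62 (-0.70 to -0.55) and LP4 over LP1 -0.78 (-0.84 to -0.71). Counted as UMIs per cell instead, *Ifngr1* was at 46.1 UMIs per 100 cells in Ctrl, 90.2 in LP1 and 66.9 in LP4, so its log2 ratio of LP4 over Ctrl turned to 0.54. On that scale the median of all genes was 1.08, and *Ifngr1* was again below it. The log2 ratio of LP4 over LP1 remained negative, at -0.43, where the median of all genes was 0.27.

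*Ifngr2* (ENSMUSG00000022965, chromosome 16, 91547072-91565623, plus strand) had 3272, 5152 and 10013 UMIs. Its level was 91.7 CPM in Ctrl (88.6 to 94.9), 98.2 CPM in LP1 (95.5 to 101) and 163 CPM in LP4 (160 to 166), lowest in Ctrl and highest in LP4. LP1 over Ctrl gave a log2 ratio of 0.10 (0.04 to 0.16), LP4 over Ctrl 0.83 (0.77 to 0.89) and LP4 over LP1 0.73 (0.68 to 0.78). The 2 chains of the interferon gamma receptor thus moved in opposite directions between 1 and 4 hours. The number of *Ifngr2* UMIs per *Ifngr1* UMI was 1.17 in Ctrl (1.11 to 1.23), 1.13 in LP1 (1.08 to 1.17) and 3.21 in LP4 (3.08 to 3.34). For the chains of the type I receptor, the number of *Ifnar2* UMIs per *Ifnar1* UMI was 1.98, 2.21 and 1.82 in the same order. These numbers compare libraries and not the abundance of 1 chain with that of the other. They do not change with the scaling of the libraries.

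None of the 4 receptor genes passed a 2-fold change of CPM in any comparison. Among the 8103 genes that reached 10 CPM in 1 or more libraries, 1.27% passed it in LP1 over Ctrl, 20.4% in LP4 over Ctrl and 16.3% in LP4 over LP1 (8.59% higher and 7.75% lower). The median log2 ratio of the receptor genes was 0.01, 0.49 and 0.62, against -0.02, -0.08 and -0.07 over all genes in the same order. In LP4 over Ctrl, 86.8% of genes had a lower ratio than *Ifngr2*, 78.9% than *Ifnar1*, 74.3% than *Ifnar2* and 21.4% than *Ifngr1*. With macrophage-like clusters alone, LP4 over Ctrl gave log2 ratios of 0.56 for *Ifnar1*, 0.45 for *Ifnar2*, -0.63 for *Ifngr1*, 0.84 for *Ifngr2* and 4.75 for *Ifnb1*. The comparisons of LP1 and LP4 with Ctrl share the Ctrl library.

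The scaling moved these values. With median-of-ratios scaling the median of all genes in LP4 over Ctrl went from -0.08 to 0.13, and *Ifngr2* came to 1.04, past the 2-fold limit, while *Ifngr1* was at -0.42. As UMIs per cell without scaling, the median of all genes was 0.80 in the comparison of LP1 and 1.08 in that of LP4 with Ctrl. On that scale the signs of *Ifnar1* and *Ifnar2* in LP1 over Ctrl turned, to 0.58 and 0.73, both still under the median of all genes, and *Ifnar1* (1.71), *Ifnar2* (1.59) and *Ifngr2* (1.99) were past 2-fold in LP4 over Ctrl, all above that median.

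**Figure D3:**
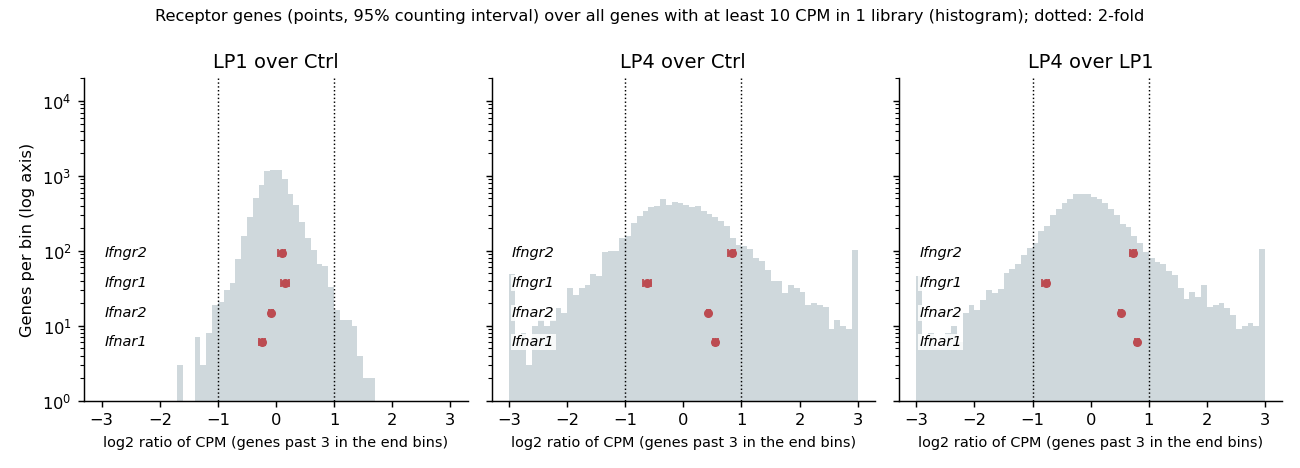
Log2 ratios of CPM for the 4 receptor genes (points with 95% counting intervals, placed by gene at arbitrary heights) over the histogram of all 8103 genes that reached 10 CPM in a library (vertical axis, genes per bin, log scale), for each pair of libraries; dotted lines mark a 2-fold change. The points stay inside the dotted lines, and *Ifngr1* lies to the left of 0 in both panels that involve LP4, while per cell its ratio of LP4 over Ctrl is 0.54.

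Shares of cells with a UMI depended on depth, and for *Ifngr1* the direction did. At each cell's own depth, an *Ifngr1* UMI was found in 34.7% of cells in Ctrl, 54.6% in LP1 and 43.9% in LP4. At 2000 UMIs per cell the shares were 14.6% (13.7 to 15.5), 16.7% (15.7 to 17.8) and 9.51% (8.68 to 10.4), so LP4 was the lowest, as it was in CPM. Cells under that depth were left out, which removed 122, 13 and 45 cells. The share for *Ifnar1* at 2000 UMIs was 31.3%, 27.4% and 42.7%, against 59.7%, 73.1% and 90.7% at own depth, and only the thinned shares show the lower level of LP1. *Ifnar2* was found in 51.3%, 50.5% and 61.9% of thinned cells and in 81.6%, 91.7% and 96.7% at own depth. *Ifngr2* was found in 17.7%, 18.0% and 27.9% of thinned cells and in 38.6%, 58.7% and 80.6% at own depth. At 2000 UMIs the intervals of Ctrl and LP1 overlapped for *Ifnar2* and *Ifngr2*.

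**Figure D4:**
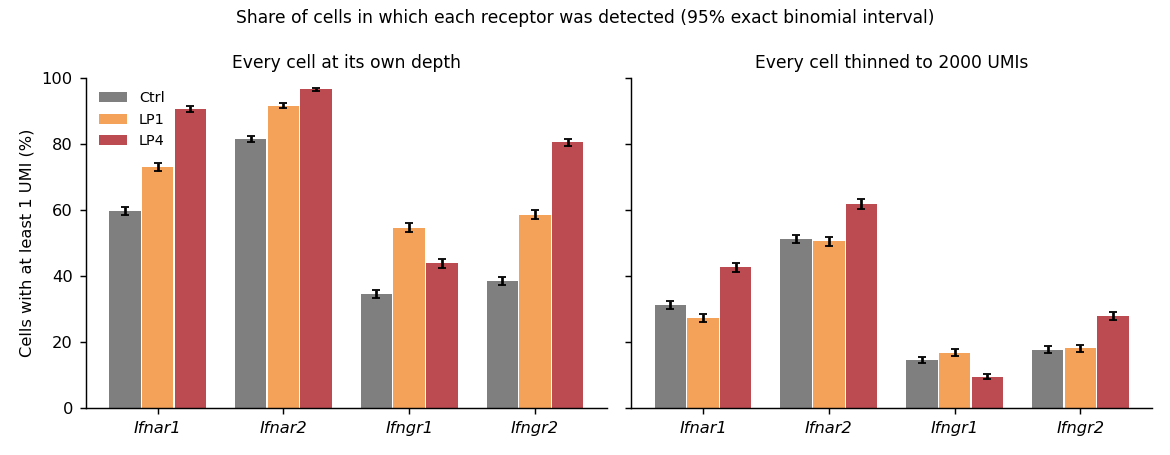
Share of cells with at least 1 UMI of each receptor gene (vertical axis, percent) in the Ctrl, LP1 and LP4 libraries, at each cell's own depth (left) and with every cell thinned to 2000 UMIs (right); error bars are 95% exact binomial intervals. *Ifngr1* in LP4 is above Ctrl on the left (43.9% against 34.7%) and below it on the right (9.51% against 14.6%).

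Both chains of a receptor were seldom seen together in a thinned cell. UMIs of *Ifnar1* and *Ifnar2* were found together in 16.2%, 14.3% and 28.2% of cells at 2000 UMIs, where the products of the single shares were 16.0%, 13.8% and 26.4%. UMIs of *Ifngr1* and *Ifngr2* were found together in 2.52%, 2.99% and 2.75% of cells, where the products were 2.58%, 3.02% and 2.66%. At own depth, both *Ifnar* chains were found in 88.5% of LP4 cells and both *Ifngr* chains in 37.3%.

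The same comparison was made in CPM in the 7 clusters that had 50 or more cells in each of the libraries. Comparing LP4 with Ctrl, *Ifnar1* was higher in 7 of 7 clusters, with log2 ratios from 0.33 in the cycling-like cluster E to 0.72 in cluster A, and every interval lay above 0. *Ifnar2* was higher in 7 of 7, from 0.22 in the dendritic-like cluster G to 0.57 in cluster B, with 6 intervals above 0. *Ifngr1* was lower in 7 of 7, from -1.09 in cluster G (-1.73 to -0.45) to -0.17 in cluster C, with 6 intervals below 0. Counted as UMIs per cell, *Ifngr1* was instead higher in LP4 than in Ctrl in 7 of 7. Cluster A held 599 *Ifngr1* UMIs in 1358 LP4 cells against 710 in 1834 Ctrl cells, and cluster C 812 in 822 against 473 in 1019. *Ifngr2* was higher in 6 of 7, up to 1.20 in cluster F (0.93 to 1.48), a macrophage-like cluster led by DNA replication genes such as *Uhrf1* and *Mcm4*. The exception was cluster G at -0.04 (-0.52 to 0.44), which was measured on 59 and 106 UMIs.

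The size of these differences varied among macrophage-like clusters. In cluster A, *Ifngr1* went from 96.4 CPM in Ctrl to 109.8 CPM in LP1 and 47.1 CPM at 4 hours (LP4 over Ctrl, log2 ratio -1.03, interval -1.19 to -0.88), and *Ifngr2* had a ratio of 1.04 (0.92 to 1.17). In cluster C, *Ifngr1* went from 64.2 to 78.0 and 57.3 CPM, and *Ifngr2* had a ratio of 0.43 (0.32 to 0.55). The intervals of the 2 clusters did not overlap for either gene. *Ifnar1* had a ratio of 0.72 (0.64 to 0.80) in A and 0.43 (0.34 to 0.53) in C. The intervals cover counting error in 1 library per condition, so they do not show that the clusters would differ in other cultures.

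Among named clusters, the lowest level of *Ifnar1* and the highest of *Ifngr1* were found in the 86 neutrophil-like cells of cluster H, led by *Mpo*, *Elane* and *S100a9*, genes of neutrophil granules and of the precursors of neutrophils. *Ifnar1* had 3, 3 and 5 UMIs there, or 28.7, 21.3 and 19.6 CPM, below each of the 7 larger clusters in the same library, whose levels were 143 CPM or more in Ctrl. *Ifngr1* was at 229 CPM in Ctrl (24 UMIs), 291 CPM in LP1 (41 UMIs) and 90.4 CPM in LP4 (23 UMIs), above each of the 7 larger clusters in the same library. In LP4 its interval (57.3 to 136) overlapped that of cluster C (53.4 to 61.4). Cluster H had 32, 25 and 29 cells, under the minimum of 50 cells used for the other clusters. The log2 ratio of *Ifngr1* in CPM there, LP4 over Ctrl, was -1.34 (-2.24 to -0.46). *Ifngr2* had 3, 12 and 30 UMIs, with a log2 ratio of 2.04 (0.35 to 4.40).

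**Figure D5:**
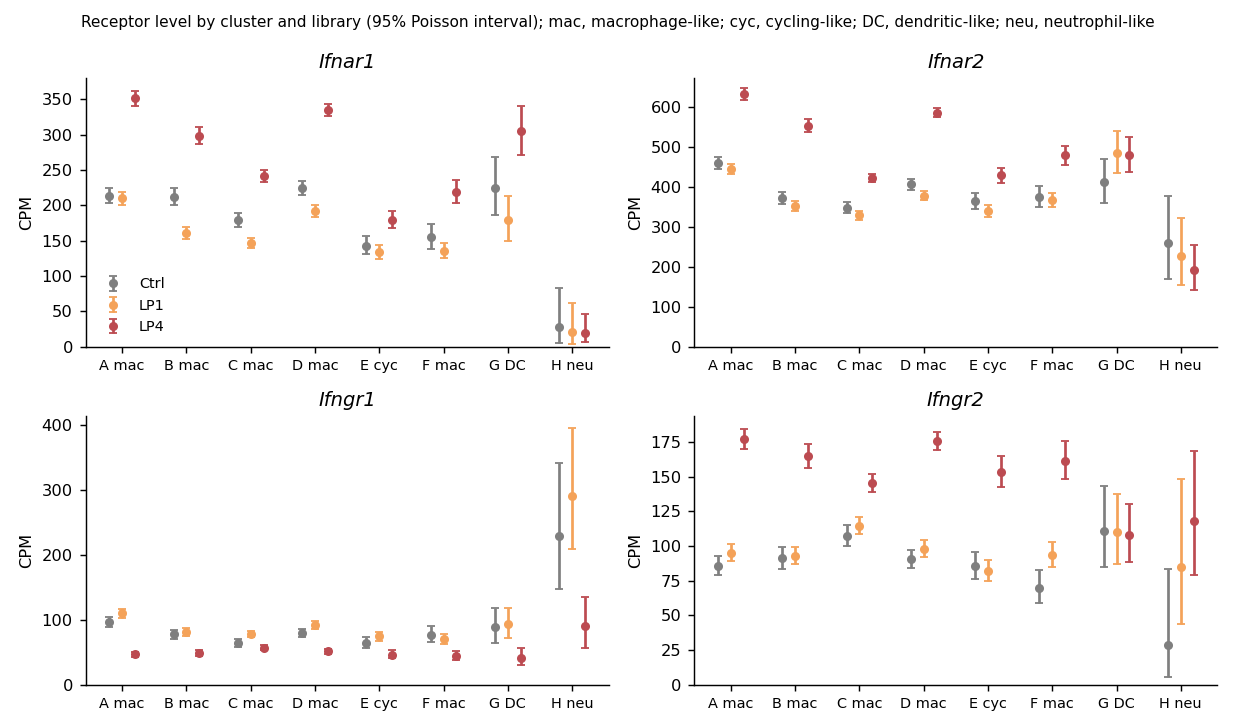
Level of each receptor gene in CPM (vertical axis, from 0) by cluster (horizontal axis; A, B, C, D and F macrophage-like, E cycling-like, G dendritic-like, H neutrophil-like) in Ctrl, LP1 and LP4, with 95% Poisson intervals. *Ifngr1* is lower in LP4 than in Ctrl in clusters A to G in CPM, though not as UMIs per cell. Neutrophil-like cells have the lowest *Ifnar1* and the highest *Ifngr1* value of the clusters shown in each library. In LP4 their *Ifngr1* interval overlaps that of cluster C.

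Over the 21 groups made by these 7 clusters and 3 libraries, the genes whose log2(CPM + 1) was most like that of a receptor were named as a description; groups of 1 library share its scaling and treatment. For *Ifnar1* they were *Eng* (Pearson r 0.946), *Zbtb7a* (0.920) and *Nfkbie* (0.907). For *Ifnar2* they were *Mxd1* (0.927), *Rap1b* (0.918) and *Tnfrsf1b* (0.918). For *Ifngr1* they were *Osbpl8* (0.963), *Lpin2* (0.953) and *Tmem86a* (0.952), each of which was lowest in LP4, with *Osbpl8* at 800 CPM in Ctrl and 318 CPM in LP4. For *Ifngr2* they were *Slc11a2* (0.952), *Mfsd13a* (0.931) and *Map2k4* (0.930). Between the receptor genes themselves r was 0.863 for *Ifnar1* with *Ifnar2* and -0.699 for *Ifngr1* with *Ifngr2*.

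*Ifnar2*, *Il10rb*, *Ifnar1* and *Ifngr2* follow each other on the plus strand of chromosome 16. *Il10rb* (91406164-91425834), which lies between the *Ifnar* genes and encodes a chain shared by the receptors for interleukin 10 and lambda interferons, was at 138 CPM in Ctrl, 149 CPM in LP1 and 123 CPM in LP4. Its log2 ratio of LP4 over Ctrl in CPM was -0.16 (-0.22 to -0.11), opposite in sign to its 3 neighbours. The sign depended on the scaling: per cell the ratio of *Il10rb* was 0.997, positive like theirs, where the median of all genes was 1.08. Of 8 other receptor chains of the same class, 4 passed 10 CPM. Of these, *F3*, which encodes tissue factor, alone passed 2-fold in LP4 over Ctrl, beside 20.4% of all genes in either direction. Its log2 ratio was -1.66 (-1.82 to -1.50), which was -0.50 per cell.

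Downstream of the receptors, the signaling genes *Stat2* (log2 ratio 3.14) and *Jak2* (2.01) were past 2-fold higher in LP4 than in Ctrl, beside 10.5% of all genes in that direction and 9.95% in the other. *Tyk2* was at 1.00 (0.86 to 1.13), just under the limit (1.17 with TMM and 1.20 with median-of-ratios scaling), *Jak1* at 0.32 and *Irf9* at 0.23. Of 7 genes that dampen the receptors' signal, 4 were past 2-fold higher in LP4 over Ctrl and 1 lower. *Socs1* was at 5.75 (5.39 to 6.15), on 60 UMIs in Ctrl and 5569 in LP4, *Socs3* at 3.63, *Usp18*, which displaces JAK1 from IFNAR2, at 3.40, and the phosphatase gene *Ptpn1* at 1.33. *Ptpn6*, which encodes the phosphatase SHP-1, was at -1.14, and this call was lost with TMM (-0.97), with median-of-ratios scaling (-0.94) and per cell (0.017). *Socs1* was the only one of the 7 past 2-fold in LP1 over Ctrl (1.20, interval 0.77 to 1.64), where 0.765% of all genes were past it in that direction. Of 5 genes for turnover of the receptors, 4 passed 10 CPM and none passed a 2-fold change of CPM in any comparison. With TMM and with median-of-ratios scaling, 1 was past 2-fold higher in LP4 over LP1. Per cell, 1 was past it there and 2 in LP4 over Ctrl. The median of all genes per cell was 0.27 and 1.08 in these comparisons, so in LP4 over Ctrl most genes were past 2-fold higher.

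Upstream of the ligand, 22 genes of sensors, adaptors, kinases and IRFs were listed and 18 passed 10 CPM. In LP4 over Ctrl, 7 were past 2-fold higher and 1 lower, beside 10.5% and 9.95% of all genes, with *Cd14*, a co-receptor of the Toll-like receptors, at 2.26, *Ifih1*, a sensor of double-stranded RNA, at 2.24, *Myd88*, the main Toll-like receptor adaptor, at 1.92 and *Tlr2*, the receptor for bacterial lipoproteins, at 1.53. The others were *Cgas* (1.84), *Ddx58* (1.78) and *Tlr3* (1.30). *Irf3*, a transcription factor for *Ifnb1*, was the gene past 2-fold lower, at -1.09, and is counted again among the 9 factors below. In LP1 over Ctrl, *Cd14* alone passed, at 1.04 (1.00 to 1.07), beside 0.765% of all genes past 2-fold higher. Of 9 factors that bind the *Ifnb1* enhancer or its co-activators, 3 were past 2-fold lower in LP4 over Ctrl and none higher, with *Jun* at -3.15, *Irf3* at -1.09 and *Hmga1* at -1.06. *Jun* alone of the 3 kept its call with TMM (-2.98), with median-of-ratios scaling and per cell (-1.99). *Irf3* and *Hmga1* were at -0.92 and -0.89 with TMM, at -0.88 and -0.86 with median-of-ratios scaling, and at 0.071 and 0.098 per cell. With median-of-ratios scaling 1 of the 9 was past 2-fold higher, and per cell 5 were, where the median of all genes was 1.08. In CPM the median of the 9 was 0.16, against -0.08 over all genes.

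Of the 14 interferon-stimulated genes, 12 were past 2-fold higher in LP4 over Ctrl (10.5% of all genes), with a median of 3.62. *Ifit1*, whose protein binds viral RNA, was the highest at 5.67, and *Irf7* and *Oas1a* were the 2 that did not pass, at 0.40 and 0.95, though *Oas1a* passed with TMM and with median-of-ratios scaling (1.16). None of the 14 passed in LP1 over Ctrl, where 0.765% of all genes were past 2-fold higher and their median was -0.32. Of 10 genes linked to interferon gamma, 8 passed 10 CPM and 7 of them were past 2-fold higher in LP4 over Ctrl, with a median of 3.34. They were led by *Gbp5* (5.21) and *Gbp4* (4.07), and *Irf1*, at 0.18, did not pass. Under 10 CPM, *Ciita* was at -0.56 (-1.03 to -0.09) on 73 UMIs in Ctrl and 85 in LP4, which was 0.60 per cell. *Cxcl9* was at 4.29 on 4 UMIs in Ctrl and 135 in LP4. Since many of these genes respond to both kinds of interferon, the list does not separate them, and *Ifng* itself had 1 UMI in LP4.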

How the data were processed

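Single-cell RNA sequencing libraries of Ctrl, LP1 and LP4 BMDMs (1 each) were used. The authors made UMI counts with Cell Ranger (version 7.1.0 per the labels; the methods name another version) on mm10, and the deposited counts are whole numbers per gene and barcode, not normalized. No value column was left unused. UMIs of kept cells were summed per library and scaled to CPM, with exact Poisson, conditional binomial and binomial (Clopper-Pearson) intervals at 95%. A gene at 0 was given a floor of 3 counts. Clusters came from Leiden clustering (resolution 0.5) of values centred within each library, without the 5 genes. A cluster's name needed 3 or more markers of a type, each in at least 50% of its cells and at 3-fold or more. Macrophage markers needed no 3-fold difference, and macrophage-like was given only where no other type qualified. The cycling-like cluster E and the dendritic-like cluster G also met the macrophage rule, with 7 and 6 markers. Doublets were scored with Scrublet but kept. Thinning drew UMIs without replacement (seed 20). The genes, lists and motifs were chosen with earlier results of these data known. Named genes are the 5 members, the list genes past 2-fold or nearest to it, and the genes most like a member by the stated minimums. The result for 1 listed gene is not reported here. Intervals and calls were tested on simulated data with independent Poisson counts, which did not cover the spread between cells. Alternatives were other cell filters, scalings, depths, resolutions, minimums and cell sets. Promoters are from RefSeq, GRCm38.p6, and positions from GENCODE vM21. The tools were Python 3.11.15, SciPy 1.17.1, Scanpy 1.11.5, leidenalg 0.10.2 and edgeR 4.0.16, the last for TMM factors only.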

Additional observations from a re-analysis of the deposited data

Results flagged for a closer look

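The cell filter left 369 LP4 barcodes out, and 3 of the 4 receptor genes were at levels above those of the kept Ctrl cells. *Ifnar1* was at 226 CPM in them (211 to 243), *Ifnar2* at 443 CPM (421 to 466) and *Ifngr2* at 154 CPM (141 to 168), each between the Ctrl and LP4 levels of the kept cells. *Ifngr1* was at 44.6 CPM (37.8 to 52.3), below the kept Ctrl cells, and *Ifnb1* had 1 UMI. In the 52 Ctrl barcodes left out, *Ifnar1* was at 180 CPM (90.0 to 323), *Ifnar2* at 508 CPM (345 to 722), *Ifngr1* at 82.0 CPM (26.6 to 191) and *Ifngr2* at 65.6 CPM (17.9 to 168), on 4 to 31 UMIs each. Set against these, the intervals overlapped for *Ifnar1*, *Ifnar2*, *Ifngr1* and *Ifngr2*. No explanation was tested.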

How the results depend on the processing

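With 1 library per condition there was nothing to leave out and no spread to test against. No paired analysis was possible because each condition has 1 library and no comparison is a test. In 11 alternatives per comparison (3 cell filters, 4 scalings, the mean of cell shares and 3 cell sets) the log2 ratio of *Ifnb1* kept its direction and stayed inside its counting interval, from 4.51 to 5.96 for LP4 over Ctrl. The median of the 4 receptor genes stayed between the medians of their lower and upper interval bounds, except for 3 scalings. For LP1 over Ctrl it was 0.079 with TMM, 0.083 with median-of-ratios scaling and 0.82 as UMIs per cell, against 0.01. For LP4 over Ctrl it was 0.66, 0.70 and 1.65, against 0.49, and for LP4 over LP1 it was 0.72, 0.75 and 0.97, against 0.62. The share of LP4 cells with an *Ifnb1* UMI was 0.193% at 1000 UMIs, 0.629% at 5000 UMIs and 1.09% at own depth, against 0.368%. Of the 12 ratios of single receptor genes, 3 changed sign, each as UMIs per cell alone. With other resolutions, *Ifngr1* was lower in CPM in LP4 than in Ctrl in 4 of 4 and 8 of 8 clusters, and UMIs per cell were not compared there. The percent of genes past 2-fold in LP1 over Ctrl was 2.94% with a minimum of 1 CPM and 12.1% with 1 UMI in each library, against 1.27%; in LP4 over Ctrl it was 31.0% and in LP4 over LP1 27.2% with 1 UMI in each library. Scalings of the gene lists were added after the data were seen: the count of enhancer factors past 2-fold lower in LP4 over Ctrl was 1 with each of TMM, median-of-ratios scaling and UMIs per cell, against 3. The count past 2-fold higher was 0, 1 and 5 in the same order, against 0. Depth limits *Ifnb1*, whose level in Ctrl rests on 2 UMIs.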
